A study of Sus scrofa with 23 samples.

Results

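RNA of the prefrontal cortex was compared between 6 pigs killed 1 week after a single dose of psilocybin and 6 pigs killed 1 week after saline. All were adolescent female Danish slaughter pigs of 20 kg. Awake pigs, free to move, had received 0.08 mg/kg psilocybin or saline once into a vein. They were killed with pentobarbital, and the brains were frozen on dry ice. The 12 libraries were taken by their labels of treatment and time from 23 libraries in all, in which 6 further pigs had been killed 1 day after psilocybin and 5 further pigs 1 day after saline. Each group of 6 at 1 week held 3 pigs of each of 2 batches named in the labels. Every pig gave 1 library from poly-A selected RNA of the whole tissue, so fewer cells of a type and less RNA per cell cannot be told apart in any value below.

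Psilocybin is a tryptamine that the body converts to psilocin, an agonist of the serotonin 5-HT2A receptor. In the cortex this receptor lies mainly on pyramidal neurons and signals through Gq proteins and phospholipase C to calcium. Its activation induces immediate early genes within hours in rodents. The comparison at 1 week asks which cortical transcripts differed that long after a single dose.

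Assigned counts per library ranged from 9504421 to 13567768 in psilocybin pigs and from 10570456 to 16212439 in saline pigs. The medians were 10000407 in psilocybin pigs and 12591404 in saline pigs, and the part of this difference in the results was not tested. The first principal component of the 12 libraries, with the batch difference removed, held 29.1% of the variance. It set psilocybin pig 6 (-35.1) and saline pig 1 (-41.1) apart from the other 10, so both groups had 1 such library. Markers of cortical cell types were present: SLC17A7, the vesicular glutamate transporter of cortical pyramidal neurons, stood at 351 CPM (counts scaled to a common library total) per kb of exon over the 12 pigs, GAD1 of inhibitory neurons at 63.1, AQP4 of astrocytes at 69.2 and MOG of myelin at 43.3 CPM per kb. TTR, the main transcript of the choroid plexus, stood at 1.44 CPM per kb. Of 14 markers of other brain regions 10 were tested, AVP, HCRT and ADORA2A among them, at 0.387 to 20.7 CPM per kb. The others, DRD2, EN1, SLC6A3 and OXT, were too low to be tested. Whether tissue of other regions was included was not tested.

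No gene passed the test at 1 week. Of 15049 genes tested with edgeR's quasi-likelihood test, 0 (0%) had a Benjamini-Hochberg adjusted p under 0.05, and the smallest adjusted p was 1.00. DESeq2 and limma-voom also called 0 genes. At an unadjusted p under 0.05, edgeR listed 300 genes (1.99% of those tested), of which 181 (1.2%) were higher and 119 (0.791%) lower after psilocybin. DESeq2 listed 318 and limma-voom 257. By definition 5% of tests without any difference, or 752.45 of these genes, fall under that threshold. The 300 genes therefore are fewer than that number, and "higher" and "lower" below describe estimates of which none passed.

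**Figure D1:**
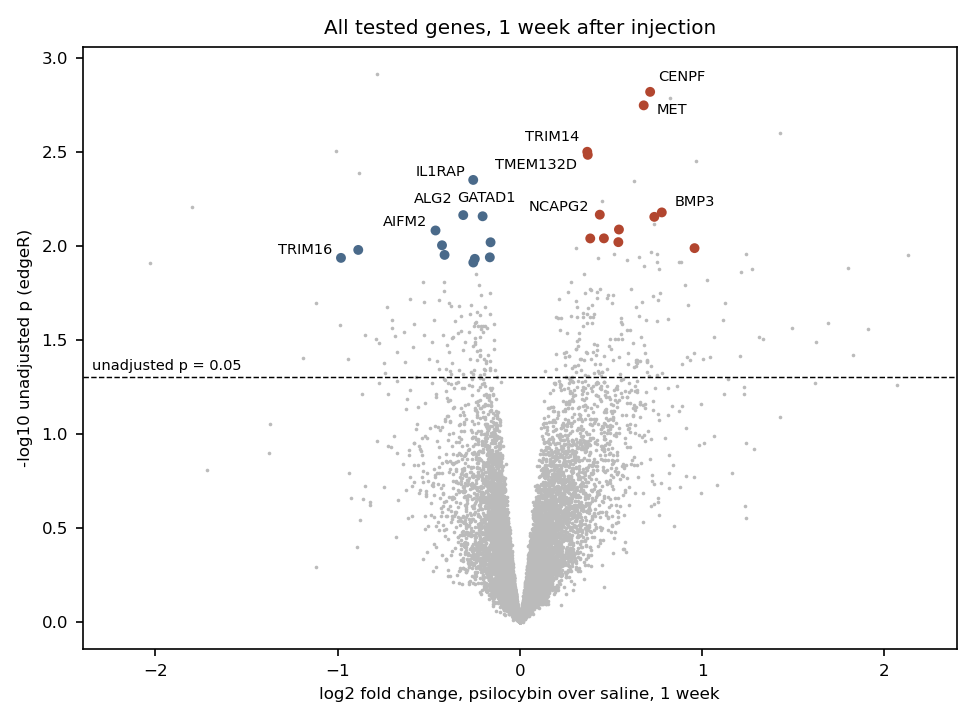
Each point is 1 of the 15049 tested genes, with the log2 fold change of psilocybin over saline at 1 week on the x axis and -log10 of the unadjusted p (edgeR) on the y axis. The dashed line marks an unadjusted p of 0.05. Coloured points are the 12 genes with the smallest p in each direction among genes that have a symbol, all of which had an adjusted p of 1.00.

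The estimates bound how large a difference could be for most transcripts. The 95% confidence interval of the log2 fold change had a median half-width of 0.26. It lay wholly within a 1.5-fold difference in either direction for 11860 genes (78.8%) and within a 2-fold difference for 14195 (94.3%). Precision followed the level. Among 8004 genes at 10 to 100 CPM, 94.7% had an interval within 1.5-fold, and among 2024 genes at 100 CPM or more 98.2% did. Of 4446 genes at 1 to 10 CPM 51.4% did so, and of 575 genes under 1 CPM only 1.04%. All 44 genes with an estimate beyond 2-fold had a mean under 10 CPM. For the more abundant transcripts a change above 1.5-fold thus lay outside the interval in nearly every case, while for many scarce ones it lay inside the interval at this depth and number of pigs.

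The genes described one by one below have a symbol, which 54 of the 300 genes lack, among them ENSSSCG00000038326 with the smallest p of all (log2 fold change -0.78, unadjusted p = 0.0012). Among the genes with a symbol and the smallest p, several of those higher after psilocybin belong to cell division and growth factor signalling. CPM values are given below as the lowest, the median and the highest of the 6 pigs of a group. CENPF, a kinetochore protein made in dividing cells, had 2.09, 2.59 and 3.06 CPM in psilocybin pigs, against 1.04, 1.53 and 2.14 CPM in saline pigs. In 5 of 6 psilocybin pigs it exceeded the highest saline pig. Its log2 fold change was 0.72 ± 0.20 (SE; unadjusted p = 0.0015, adjusted p = 1.00, edgeR). The difference in mean log2 CPM was 0.88 in batch 1 and 0.45 in batch 2.

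MET, the receptor of hepatocyte growth factor, which marks subsets of developing cortical projection neurons in rodents, had 3.70, 4.30 and 5.10 CPM in psilocybin pigs, against 1.82, 2.49 and 3.80 CPM in saline pigs. All but 1 psilocybin pig lay above the highest saline pig, with a log2 fold change of 0.68 ± 0.19 (SE; unadjusted p = 0.0018). The batches gave 0.72 in batch 1 and 0.65 in batch 2. BMP3, a secreted ligand of the TGF-beta superfamily, had 1.76, 2.79 and 3.44 CPM in psilocybin pigs, against 0.694, 1.56 and 2.72 CPM in saline pigs, and the groups overlapped. Its log2 fold change was 0.78 ± 0.26 (SE; unadjusted p = 0.0066). ACVR2B, a receptor of activins, was scarcer, with 0.920, 2.03 and 3.44 CPM in psilocybin pigs, against 0.260, 1.02 and 1.86 CPM in saline pigs. In 3 psilocybin pigs it stood above every saline pig (log2 fold change 0.96, unadjusted p = 0.01). ACVR2B overlaps SLC22A13 on the same strand from first to last exon, introns included, and whether reads were shared was not tested.

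NCAPG2, a subunit of the condensin II complex, had 3.53, 4.38 and 5.20 CPM in psilocybin pigs, against 2.74, 3.16 and 3.81 CPM in saline pigs, with 5 psilocybin pigs above all saline pigs (log2 fold change 0.44, unadjusted p = 0.0068). GINS3, part of the replication helicase, had 1.67, 2.54 and 3.08 CPM in psilocybin pigs, against 0.584, 1.54 and 2.34 CPM in saline pigs, and the groups overlapped (log2 fold change 0.74, unadjusted p = 0.007). DCX, a microtubule protein of migrating young neurons, had 7.21, 10.3 and 12.7 CPM in psilocybin pigs, against 5.12, 7.43 and 9.53 CPM in saline pigs. It exceeded the highest saline pig in 4 psilocybin pigs (log2 fold change 0.39, unadjusted p = 0.0091; 0.34 in batch 1 and 0.44 in batch 2). The remaining genes of this rank were TRIM14, an adaptor of antiviral signalling (0.37), TMEM132D, a neuronal membrane protein (0.37), KIF26B, a kinesin family member (0.54), PDIA5, a protein disulfide isomerase of the endoplasmic reticulum (0.46), and NIPAL2 (0.54), each value being a log2 fold change. Their unadjusted p ran from 0.0031 for TRIM14 to 0.0095 for NIPAL2. TRIM14 overlaps NANS on the opposite strand, and the counting did not use strand.

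**Figure D2:**
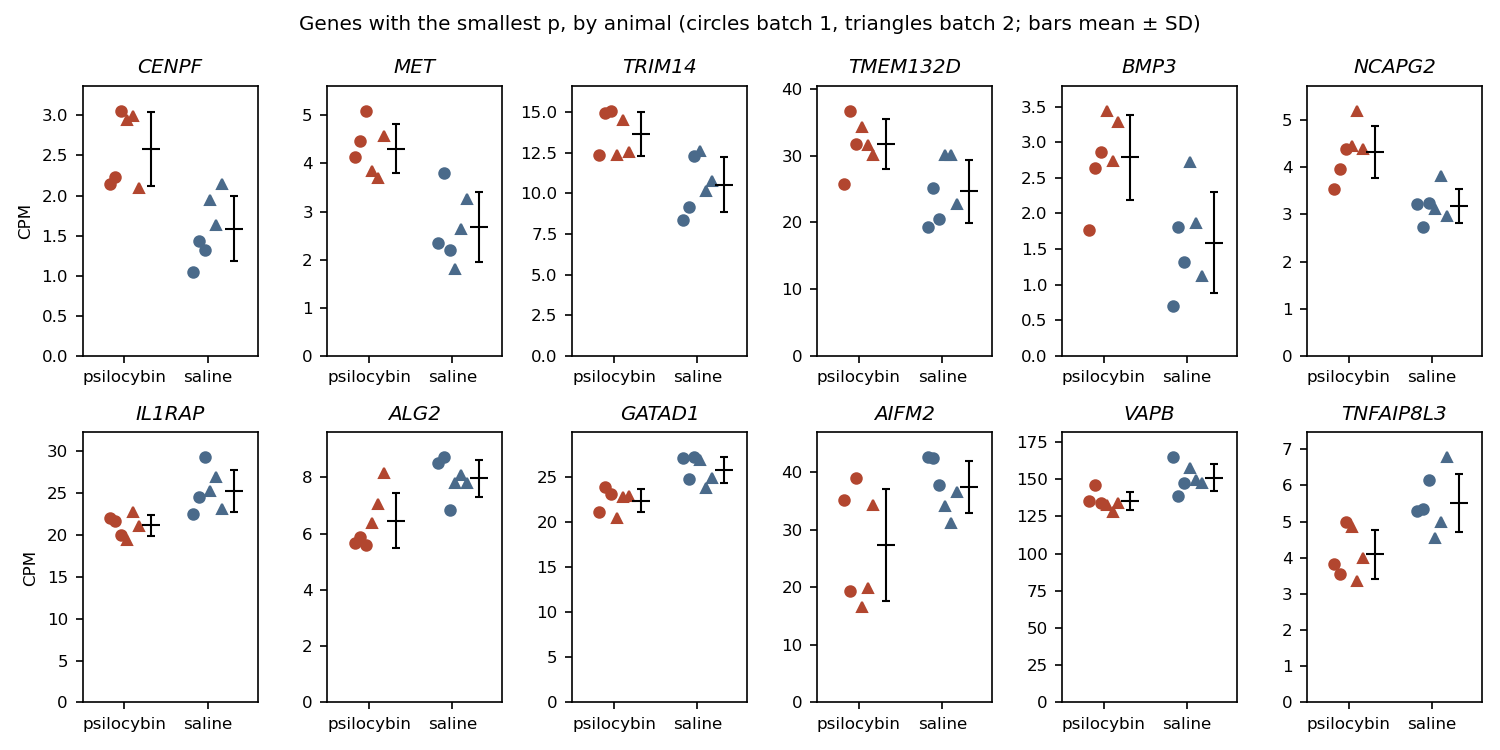
CPM of 12 genes in each pig, psilocybin left and saline right in every panel, with circles for batch 1, triangles for batch 2 and a bar for the mean ± SD of the 6 pigs. The upper row shows the 6 genes with a symbol and the smallest p among those higher after psilocybin, and the lower row the 6 such genes among those lower. The groups overlap in all 12 panels, and every y axis starts at 0.

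Several of the genes lower after psilocybin had smaller estimates and higher levels. IL1RAP, the co-receptor that interleukin 1 and interleukin 33 receptors share, had 19.3, 21.4 and 22.7 CPM in psilocybin pigs, against 22.5, 24.9 and 29.3 CPM in saline pigs. It lay below the lowest saline pig in 5 psilocybin pigs. The log2 fold change was -0.26 ± 0.081 (SE; unadjusted p = 0.0044), and the batches gave -0.25 in batch 1 and -0.25 in batch 2. AIFM2, also called FSP1, an oxidoreductase that protects membranes from lipid peroxidation, had 16.5, 27.1 and 39.0 CPM in psilocybin pigs, against 31.2, 37.2 and 42.6 CPM in saline pigs. Psilocybin pigs 2, 4 and 5 had 19.3, 16.5 and 19.9 CPM, below every saline pig, while pigs 1, 3 and 6 lay within the saline range. Its log2 fold change was -0.46 ± 0.16 (SE; unadjusted p = 0.0083), and it overlaps MACROH2A2, whose reads may be counted with it.

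VAPB, a tether between the endoplasmic reticulum and other membranes that is mutated in a familial form of motor neuron disease, had 128, 134 and 146 CPM in psilocybin pigs, against 139, 149 and 165 CPM in saline pigs. It was below all saline pigs in 5 psilocybin pigs, with a log2 fold change of -0.16 (unadjusted p = 0.0095). ALG2, a mannosyltransferase of N-glycan synthesis, had 5.61, 6.14 and 8.16 CPM in psilocybin pigs, against 6.84, 7.95 and 8.72 CPM in saline pigs, and the groups overlapped (log2 fold change -0.31, unadjusted p = 0.0068; -0.47 in batch 1 and -0.14 in batch 2). TRIM16, a ubiquitin ligase family member, had 0.597, 1.62 and 2.24 CPM in psilocybin pigs, against 1.87, 3.13 and 4.09 CPM in saline pigs. Its log2 fold change of -0.98 was the most negative of the 12 (unadjusted p = 0.012). The others in this rank were GATAD1 (-0.20), TNFAIP8L3, a lipid transfer protein (-0.43), SMTNL2 (-0.41), PHAX, an adaptor for the export of small nuclear RNA (-0.16), ACP6, a lysophosphatidic acid phosphatase (-0.25), and KIF19, a kinesin (-0.26), as log2 fold changes, together with TTC34 below. TNFAIP8L3 overlaps AP4E1, and PHAX overlaps SPMIP10 and ALDH7A1.

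The pigs of both groups did not overlap at all for 7 genes, none of which passed. How many genes would do so without any difference was not computed, so the 7 cannot be read as an excess. Psilocybin pigs were all higher for 3 genes (0.0199% of those tested) and all lower for 4 (0.0266%). PDIA5 had 3.38, 3.63 and 4.47 CPM in psilocybin pigs, against 2.32, 2.70 and 3.19 CPM in saline pigs (log2 fold change 0.46, unadjusted p = 0.0091). TRAM1, a component of the protein translocation site of the endoplasmic reticulum, had 22.9, 23.7 and 26.7 CPM in psilocybin pigs, against 20.1, 20.7 and 22.03 CPM in saline pigs (log2 fold change 0.22, unadjusted p = 0.019). TTC34 had 0.305, 0.793 and 0.969 CPM in psilocybin pigs, against 1.102, 1.35 and 1.49 CPM in saline pigs (log2 fold change -0.89, unadjusted p = 0.01). Those 3 genes show the span of estimates, a small one in the abundant TRAM1 and a larger one in the scarce TTC34. KIAA1328 was lower in all psilocybin pigs as well (log2 fold change -0.47). The identifiers ENSSSCG00000032203 (0.72), ENSSSCG00000034246 (-0.53) and ENSSSCG00000027991 (-0.32) have no symbol in the tables used.

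Of the tested transcripts of the serotonin system, 8 of 18 listed, 5 had an interval within 1.5-fold, beside 78.8% of all genes tested. Of 8 tested members 3 had a positive estimate, with a median log2 fold change of -0.055, beside -0.0032 over all genes tested. None passed, and 1 was higher and 1 lower at an unadjusted p under 0.05, beside 1.2% and 0.791% of all genes tested. Members and lists were chosen with earlier results of these data known. Counts of this and the later lists therefore cannot be judged against the shares of all genes. HTR2A, the receptor through which psilocin has its main psychoactive effect, had 10.9, 18.3 and 21.3 CPM in psilocybin pigs, against 11.6, 20.8 and 21.9 CPM in saline pigs. The ranges coincided, and the log2 fold change was -0.11 (95% interval -0.52 to 0.30; unadjusted p = 0.58). HTR2C, the related Gq-coupled receptor, had 8.90, 10.5 and 11.3 CPM in psilocybin pigs, against 8.85, 10.4 and 12.5 CPM in saline pigs, with a log2 fold change of -0.026 (95% interval -0.26 to 0.21). Both intervals lay within 1.5-fold.

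HTR3A, the serotonin-gated ion channel of a class of cortical interneurons, had 3.65, 4.02 and 5.45 CPM in psilocybin pigs, against 3.72, 5.34 and 7.10 CPM in saline pigs (log2 fold change -0.31, 95% interval -0.66 to 0.047). MAOB, a monoamine oxidase found mainly in glia, had 76.4, 83.6 and 109.9 CPM in psilocybin pigs, against 89.9, 102 and 110.5 CPM in saline pigs. It was lower than all saline pigs in 4 psilocybin pigs (log2 fold change -0.20, unadjusted p = 0.027), and the difference was -0.36 in batch 1 and -0.043 in batch 2. SLC6A4, the serotonin transporter, was the scarcest of the list, with 0.709, 1.57 and 2.04 CPM in psilocybin pigs, against 0.694, 0.795 and 1.25 CPM in saline pigs (log2 fold change 0.67, unadjusted p = 0.031). HTR1E, HTR4 and HTR7 had log2 fold changes of 0.033, -0.085 and 0.043. Per kb of exon, MAOB had the highest level of the list at 35.9 CPM, followed by HTR2A at 3.06, HTR2C at 2.13, HTR3A at 1.99, HTR7 at 1.81, HTR1E at 1.19, HTR4 at 0.351 and SLC6A4 at 0.166 CPM per kb. HTR1F, HTR2B, HTR3B and TPH2 fell under the filter on low counts. HTR1A, HTR1B, HTR1D, HTR5A, HTR6 and MAOA had no matched identifier, so nothing is known of them here.

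Downstream of the receptor, 15 of 25 tested Gq pathway and desensitisation genes had a positive estimate (median log2 fold change 0.034), and 20 had an interval within 1.5-fold. None passed. GNA14, a Gq family alpha subunit, had 2.64, 3.21 and 4.28 CPM in psilocybin pigs, against 3.61, 4.41 and 5.56 CPM in saline pigs. It lay below all saline pigs in 5 psilocybin pigs, with a log2 fold change of -0.44 (unadjusted p = 0.019; -0.43 in batch 1 and -0.42 in batch 2). The main cortical Gq subunit gene GNAQ had 0.096 (95% interval -0.10 to 0.30) and GNA11 -0.038 (-0.18 to 0.099) on the log2 fold change scale. For the calcium release channels ITPR1 and ITPR2 the log2 fold changes were 0.24 and 0.30.

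**Figure D3:**
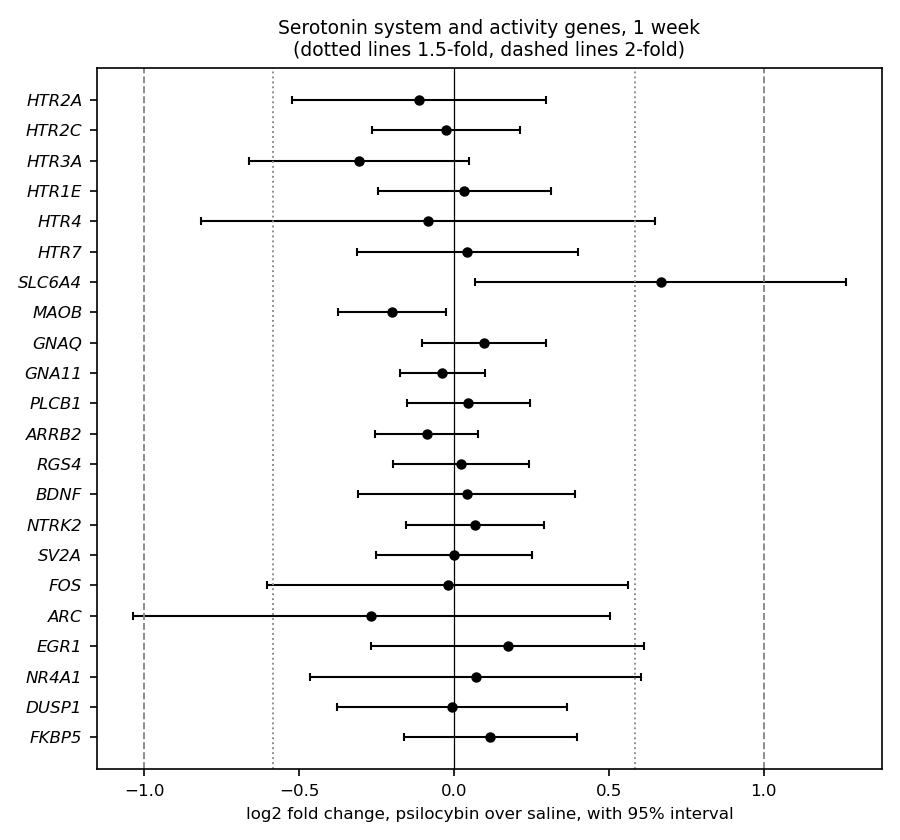
Log2 fold change of psilocybin over saline at 1 week for genes of the serotonin system, Gq signalling, neurotrophins and neuronal activity, with 95% confidence intervals from edgeR. Dotted and dashed lines mark 1.5-fold and 2-fold differences. Intervals of HTR2A, HTR2C, BDNF, NTRK2 and SV2A lie within 1.5-fold, and those of ARC, HTR4 and SLC6A4 are the widest.

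Genes induced by neuronal activity varied more between pigs than between groups. Of 35 tested immediate early genes 21 had a positive estimate, with a median log2 fold change of 0.029, and no member had an unadjusted p under 0.05. The batches went opposite ways, with 27 of 35 positive and a median of 0.14 in batch 1 alone, and 7 of 35 positive and a median of -0.11 in batch 2 alone. The median was 0.19 without saline pig 5 and -0.054 without saline pig 3. The score of the list, the mean log2 CPM of its members relative to the 12 pigs, spanned -0.13 to 0.18 in psilocybin pigs, against -0.58 to 0.65 in saline pigs. Saline pigs 3 and 5 held both extremes. ARC, whose protein takes part in the removal of AMPA receptors, had 118, 164 and 267 CPM in psilocybin pigs, against 48.3, 194 and 549 CPM in saline pigs. The psilocybin pigs all lay within the saline range (log2 fold change -0.27, 95% interval -1.04 to 0.50). FOS had 17.1, 26.2 and 30.8 CPM in psilocybin pigs, against 8.15, 23.9 and 45.6 CPM in saline pigs, again wholly within the saline range (log2 fold change -0.021, 95% interval -0.60 to 0.56). For the transcription factors EGR1 and NR4A1 and the phosphatase DUSP1 the log2 fold changes were 0.17, 0.069 and -0.0066. DUSP5 (-0.61), GADD45B (-0.18) and FOSL1 (-0.16) had the smallest p of the list, from 0.12 to 0.20. FOSL1 overlaps CCDC85B, and its counts may hold reads of that gene.

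The neurotrophin and mTOR list had 17 of 26 positive estimates and a median log2 fold change of 0.041, with no member under an unadjusted p of 0.05. BDNF, the neurotrophin most tied to cortical plasticity, had 10.9, 14.2 and 17.7 CPM in psilocybin pigs, against 11.5, 13.1 and 18.4 CPM in saline pigs (log2 fold change 0.042, 95% interval -0.31 to 0.39). Its receptor gene NTRK2 had 622, 673 and 821 CPM in psilocybin pigs, against 549, 678 and 720.3 CPM in saline pigs (log2 fold change 0.066, 95% interval -0.16 to 0.29). The groups overlapped for both. RPTOR, the scaffold of mTOR complex 1, had the smallest p of the list with 0.12 (unadjusted p = 0.093), followed by the kinase CAMK4 (0.20) and the neurotrophin NTF3 (-0.41), all as log2 fold changes.

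Synaptic genes were close to even between the groups. SV2A, the vesicle protein imaged as a marker of synapse density, had 334, 375 and 408 CPM in psilocybin pigs, against 291, 383 and 438 CPM in saline pigs. Its log2 fold change was 0.00076 (95% interval -0.25 to 0.25), and the sign turned in several alternatives. The presynaptic list had 15 of 28 positive estimates (median log2 fold change 0.00074), and 24 of its intervals lay within 1.5-fold. The glutamate receptor and scaffold list had 28 of 37 positive estimates at a median log2 fold change of 0.034. GABA synthesis, transport and receptor genes had 11 of 19 at a median of 0.018. Across these 3 lists SV2C alone had an unadjusted p under 0.05, beside 1.99% of all genes tested.

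The largest synaptic estimates came from genes with wide ranges in both groups. SV2C, a vesicle protein of the SV2 family, had 1.30, 5.93 and 9.62 CPM in psilocybin pigs, against 0.955, 3.01 and 10.1 CPM in saline pigs (log2 fold change 0.64, unadjusted p = 0.04). BSN, the active zone scaffold bassoon, had 34.8, 151 and 211 CPM in psilocybin pigs, against 34.7, 88.5 and 166 CPM in saline pigs (log2 fold change 0.63, unadjusted p = 0.07). For both, pig 1 of each group was the lowest of its group. The same held for GRIN2A, an NMDA receptor subunit, at 11.05 CPM in psilocybin pig 1 and 6.16 CPM in saline pig 1, with group medians of 29.9 CPM in psilocybin pigs and 21.6 CPM in saline pigs. Its log2 fold change was 0.56 (unadjusted p = 0.061). Other leading members were NRXN3, a presynaptic adhesion protein (0.47), the kainate receptor subunit GRIK3 (0.46), the scaffold DLG1 (0.12) and the GABA-A receptor subunits GABRG3 (0.59) and GABRB2 (0.13), all log2 fold changes with an unadjusted p from 0.064 to 0.19.

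Neuron class markers were likewise even, with 10 of 19 positive estimates for excitatory and layer genes (median log2 fold change 0.014) and 9 of 17 for inhibitory markers (0.018). NEUROD2, a transcription factor of excitatory neurons, was at -0.16, the deep layer marker CCN2 at 0.26 and CUX2 of the upper layers at 0.30 on the log2 fold change scale. RELN, secreted by interneurons of the upper layers, had 17.8, 28.3 and 36.4 CPM in psilocybin pigs, against 12.3, 21.1 and 34.6 CPM in saline pigs (log2 fold change 0.45, unadjusted p = 0.056; 0.79 in batch 1 and 0.040 in batch 2). GAD2 and LHX6 of inhibitory neurons had log2 fold changes of 0.26 and 0.21. Of 15 neuropeptide genes 4 had a positive estimate (median log2 fold change -0.077). GAL, which encodes galanin, had 0.0995, 0.417 and 0.614 CPM in psilocybin pigs, against 0.311, 0.761 and 1.82 CPM in saline pigs (log2 fold change -1.12, unadjusted p = 0.02), a level at which few reads were counted. PDYN and CARTPT had log2 fold changes of -0.53 and 0.18.

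Interferon response genes had the highest median of the 32 lists, with 2 of the 6 psilocybin pigs apart from the other 4. Type I interferons bind a cell surface receptor whose signal turns on many antiviral genes together. Of 43 tested members 40 had a positive estimate, beside 7338 of all 15049 genes tested, and the median log2 fold change was 0.26. None passed, and 3 were higher at an unadjusted p under 0.05 (TRIM14, TRIM21 and GBP1), beside 1.2% of all genes tested. The list score was 0.69 in psilocybin pig 3 of batch 1 and 0.62 in psilocybin pig 5 of batch 2. The other 4 psilocybin pigs had -0.16, -0.19, 0.080 and -0.32, against -0.44 to 0.18 in the saline pigs. Pig 3 was the highest of the 12 pigs for 19 of the 43 members and pig 5 for 16. Without pig 3 alone the median was 0.11, and without both of these pigs, which were chosen after their scores were seen, it was -0.026. The median was 0.49 in batch 1 alone and 0.076 in batch 2 alone.

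RSAD2, an antiviral enzyme, shows the pattern and was chosen after its values were seen. It had 23.5 CPM in psilocybin pig 3 and 19.2 CPM in pig 5, from 2.64 to 6.28 CPM in the other 4 psilocybin pigs, and from 1.04 to 12.97 CPM in saline pigs (log2 fold change 1.23, unadjusted p = 0.061). TRIM14 departed from it: its 12.3, 13.5 and 15.1 CPM in psilocybin pigs, against 8.33, 10.4 and 12.6 CPM in saline pigs, left 3 psilocybin pigs above all saline pigs and the lowest psilocybin pig at the level of the highest saline ones. TRIM21, an intracellular antibody receptor, had 2.99, 3.60 and 6.87 CPM in psilocybin pigs, against 2.43, 3.07 and 4.02 CPM in saline pigs, and only pigs 3 and 5 exceeded the saline range (log2 fold change 0.50, unadjusted p = 0.035). GBP1, a guanylate-binding protein that other GBP genes resemble and GBP2 overlaps, had 12.9, 20.9 and 33.4 CPM in psilocybin pigs, against 13.7, 16.3 and 17.4 CPM in saline pigs (log2 fold change 0.41, unadjusted p = 0.047).

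Markers of microglia and blood cells had the following values in the same pigs. Of 20 microglia markers 18 had a positive estimate, at a median log2 fold change of 0.075 with none under an unadjusted p of 0.05. That median lay from 0.010 (without psilocybin pig 5) to 0.15 (without psilocybin pig 2) when 1 pig was left out. Their score was 0.38 in psilocybin pig 3, the highest of the 12, 0.21 in pig 1, whose interferon score was low, 0.18 in pig 5 and -0.27 to -0.13 in the other 3, against -0.23 to 0.23 in saline pigs. The summed level of the list was 381 to 617 CPM in psilocybin pigs and 403 to 537 CPM in saline pigs. CX3CR1, the fractalkine receptor of microglia, had 13.4, 17.6 and 32.4 CPM in psilocybin pigs, against 12.6, 17.0 and 22.3 CPM in saline pigs, and ITGAM and LY86 had log2 fold changes of 0.18 and -0.32. Blood and lymphocyte markers summed to 67.8 to 250.5 CPM in psilocybin pigs and 31.8 to 205 CPM in saline pigs. The sums were 72.2 CPM in psilocybin pig 3 and 86.5 CPM in psilocybin pig 5. The highest were 214 CPM in psilocybin pig 1 and 250.5 CPM in psilocybin pig 2, whose interferon scores were -0.16 and -0.19. The globin HBB ran from 32.5 to 212 CPM in psilocybin pigs and from 10.7 to 174 CPM in saline pigs. CD3D, CD3E and MS4A1 of T and B cells and S100A8, S100A12 and LYZ of myeloid cells were too low to be tested, and 6 of the 9 tested members had a positive estimate. CD2 (0.66), PTPRC (0.35) and HBB (0.77) had log2 fold changes with unadjusted p from 0.067 to 0.18. The part of these cells in the interferon values was not tested.

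**Figure D4:**
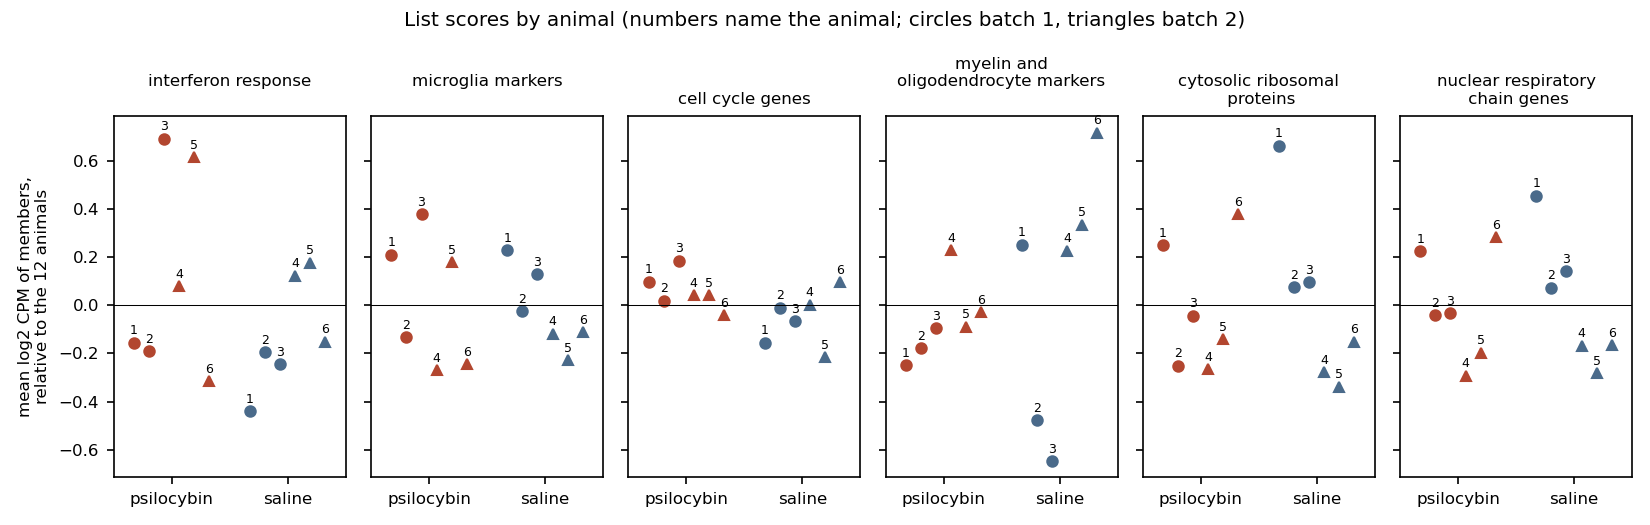
List scores, the mean log2 CPM of the members relative to the 12 pigs, for 6 gene lists in each pig, psilocybin left and saline right, with circles for batch 1, triangles for batch 2 and the pig's number above. Psilocybin pigs 3 and 5 stand above all others for interferon response genes. Ribosomal and respiratory chain scores are highest in saline pig 1, and myelin scores range more widely in saline pigs than in psilocybin pigs.

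Antigen presentation genes had 9 of 13 positive estimates and a median log2 fold change of 0.12. Of the 26 listed, B2M, SLA-1, SLA-2, SLA-3 and SLA-DRA were among those without a matched identifier. TAP1, the peptide transporter for MHC class I loading, had 17.3, 27.1 and 32.5 CPM in psilocybin pigs, against 16.3, 20.9 and 23.2 CPM in saline pigs (log2 fold change 0.27, unadjusted p = 0.061), and the immunoproteasome subunits PSMB8 and PSMB9 had 0.30 and 0.21. Pig 3 was the highest psilocybin pig for TAP1 and PSMB9. Of 25 tested interleukin 1, NF-kB and inflammatory genes 17 had a positive estimate (median log2 fold change 0.070, with 0.19 in batch 1 alone and -0.037 in batch 2 alone). IL1B and TNF had no matched identifier, and IL1A, IL6, IL1RL1, IL18R1 and IL18RAP were too low to be tested. IL1R1, the receptor whose partner is IL1RAP, stood at 0.47 (unadjusted p = 0.076), opposite in sign to IL1RAP. CCL2, a chemokine for monocytes, had 0.608, 1.47 and 2.56 CPM in psilocybin pigs, against 0.454, 0.706 and 1.18 CPM in saline pigs, and 3 psilocybin pigs exceeded the saline range (log2 fold change 1.03, unadjusted p = 0.015).

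Cell division genes held the most members with a small unadjusted p. Of 41 tested members 25 had a positive estimate, beside 48.8% of all genes tested, and the median log2 fold change was 0.095. All 6 members with an unadjusted p under 0.05 were higher after psilocybin, beside 1.2% of all genes tested, among them CENPF, NCAPG2 and GINS3. The list was chosen with earlier results of these data known, so its count cannot be judged against that share. The median was 0.19 in batch 1 alone and -0.031 in batch 2 alone, and 0.0052 without saline pig 5. The other 3 were CENPI, CENPE and NUSAP1, with log2 fold changes of 0.44, 1.33 and 0.33. CENPE, a kinetochore motor named here after its values were seen, rested on 1 pig: it had 8.77 CPM in psilocybin pig 3, from 0.995 to 1.76 CPM in the other 5 psilocybin pigs and from 0.434 to 1.30 CPM in saline pigs. The summed level of the list was 766 to 900.5 CPM in psilocybin pigs and 710.0 to 861 CPM in saline pigs, so the ranges overlapped. CDK1, CCNB1, BUB1 and ASPM, genes that mark cells in division, were among the 8 matched members too low to be tested. The list of receptor tyrosine kinases and their growth factors had 27 of 39 positive estimates (median log2 fold change 0.054). It also holds BMP3, although that is a ligand of the TGF-beta superfamily. All 3 members with an unadjusted p under 0.05 (MET, BMP3 and ERBB4) were higher, beside 1.2% of all genes tested. ERBB4, the neuregulin receptor of interneurons, had 2.76, 5.57 and 10.5 CPM in psilocybin pigs, against 1.75, 3.93 and 5.91 CPM in saline pigs (log2 fold change 0.56, unadjusted p = 0.031).

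Myelin and oligodendrocyte markers had the lowest median of the 32 lists, and the batches gave opposite signs. Only 1 of 14 members had a positive estimate, and the median log2 fold change was -0.19. It was 0.072 in batch 1 alone and -0.41 in batch 2 alone, so the negative sign was seen in batch 2 and not in batch 1. The median was -0.30 without saline pig 3 and -0.059 without saline pig 6. No member had an unadjusted p under 0.05. The list score spanned -0.25 to 0.23 in psilocybin pigs, inside the -0.65 to 0.72 of saline pigs. MOG, a protein of the outer myelin surface, had 19.8, 30.9 and 40.4 CPM in psilocybin pigs, against 23.2, 38.8 and 52.3 CPM in saline pigs (log2 fold change -0.26). TF, which encodes transferrin, and the transcription factor SOX10 had log2 fold changes of -0.34 and -0.18. The precursor list had 6 of 11 positive estimates (median 0.054, with 0.11 in batch 1 alone and -0.11 in batch 2 alone), and PDGFRA, VCAN and MEGF11 at 0.45, 0.23 and -0.22, as log2 fold changes.

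Astrocyte markers had 8 of 14 positive estimates at a median log2 fold change of 0.017 (-0.070 in batch 1 alone and 0.088 in batch 2 alone). The 2 members under an unadjusted p of 0.05, beside 1.99% of all genes tested, had opposite signs. SLC1A2, the main glutamate transporter of astrocytes, had 98.7, 357 and 635 CPM in psilocybin pigs, against 99.7, 199 and 447 CPM in saline pigs (log2 fold change 0.67, unadjusted p = 0.02). As with SV2C, pig 1 was the lowest of each group, and the ranges overlapped widely. ALDH1L1, a folate enzyme used as an astrocyte marker, had 19.7, 26.4 and 29.1 CPM in psilocybin pigs, against 25.8, 28.9 and 38.9 CPM in saline pigs (log2 fold change -0.24, unadjusted p = 0.036). GJA1, which encodes the gap junction protein connexin 43, had 0.11. Endothelial, mural and meningeal markers had 14 of 21 positive estimates (median 0.054, with 0.19 in batch 1 alone and -0.15 in batch 2 alone), with COL3A1, NOTCH3 and ACTA2 at 0.69, 0.14 and -0.31 on the log2 fold change scale. Of the 3 tested choroid plexus and ependymal markers, TTR had 0.176, 0.651 and 9.93 CPM in psilocybin pigs, against 0.372, 1.63 and 7.80 CPM in saline pigs, FOXJ1 a log2 fold change of -0.020 and RSPH1 of 0.034.

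Among markers of other brain regions 3 of 10 tested genes had a positive estimate. AVP, the vasopressin gene of hypothalamic neurons, had 2.73, 4.40 and 6.37 CPM in psilocybin pigs, against 1.09, 2.17 and 3.89 CPM in saline pigs, with 4 psilocybin pigs above the saline range (log2 fold change 0.88, unadjusted p = 0.012). HCRT, which encodes orexin, had 0, 0.502 and 0.844 CPM in psilocybin pigs, against 0.279, 1.01 and 1.48 CPM in saline pigs (log2 fold change -0.99, unadjusted p = 0.026). The adenosine receptor ADORA2A of the striatum had a log2 fold change of -0.38, with 0.12 in batch 1 and -1.003 in batch 2 as differences in mean log2 CPM. AVP and HCRT thus lay on opposite sides at levels of a few CPM or less.

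All 13 protein-coding genes of the mitochondrial genome had a negative estimate, and each interval lay within 1.5-fold. Their median log2 fold change was -0.12, and it was -0.16 in batch 1 alone and -0.066 in batch 2 alone. ND1 (-0.17), CYTB (-0.17) and ND6 (-0.15) had the smallest p, from 0.27 to 0.32. These genes share 1 transcript unit per strand, so they are not independent. They took 10.2% ± 1.34 (SD) of counts in psilocybin pigs and 10.9% ± 1.17 in saline pigs (n = 6 each; exact permutation within batch, two-sided p = 0.28, with 0.005 the smallest p the 400 arrangements allow). The difference was -0.655 percentage points, with -0.944 in batch 1 and -0.365 in batch 2. Psilocybin pig 1 had 12.9%, above its group. Each pig was left out in turn, and without psilocybin pig 1 the difference was -1.19 points (exact p = 0.03), the smallest p of these. Leaving out any other pig gave an exact p from 0.135 (without saline pig 5) to 0.61 (without saline pig 1).

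Nuclear genes of the respiratory chain and of the cytosolic ribosome were precise and even when both batches were combined, but not within a batch. Of 55 respiratory chain genes 23 had a positive estimate (median log2 fold change -0.0069), and all 55 intervals lay within 1.5-fold. The medians were -0.18 in batch 1 alone and 0.17 in batch 2 alone. Ribosomal protein genes had 11 of 44 positive estimates (median -0.020), -0.32 in batch 1 alone and 0.28 in batch 2 alone. Saline pig 1 of batch 1 was the highest of the 12 for 43 of the 44 ribosomal genes and for 49 of the 55 respiratory chain genes, and psilocybin pig 6 of batch 2 stood highest among the psilocybin pigs, with ribosomal scores of 0.38 in psilocybin pig 6 and 0.66 in saline pig 1. These are the libraries that the first principal component set apart. NDUFS3, NDUFV1 and NDUFA8 of complex I had log2 fold changes of -0.12, -0.12 and -0.11, and RPS4X and RPS29 of -0.086 and -0.10.

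**Figure D5:**
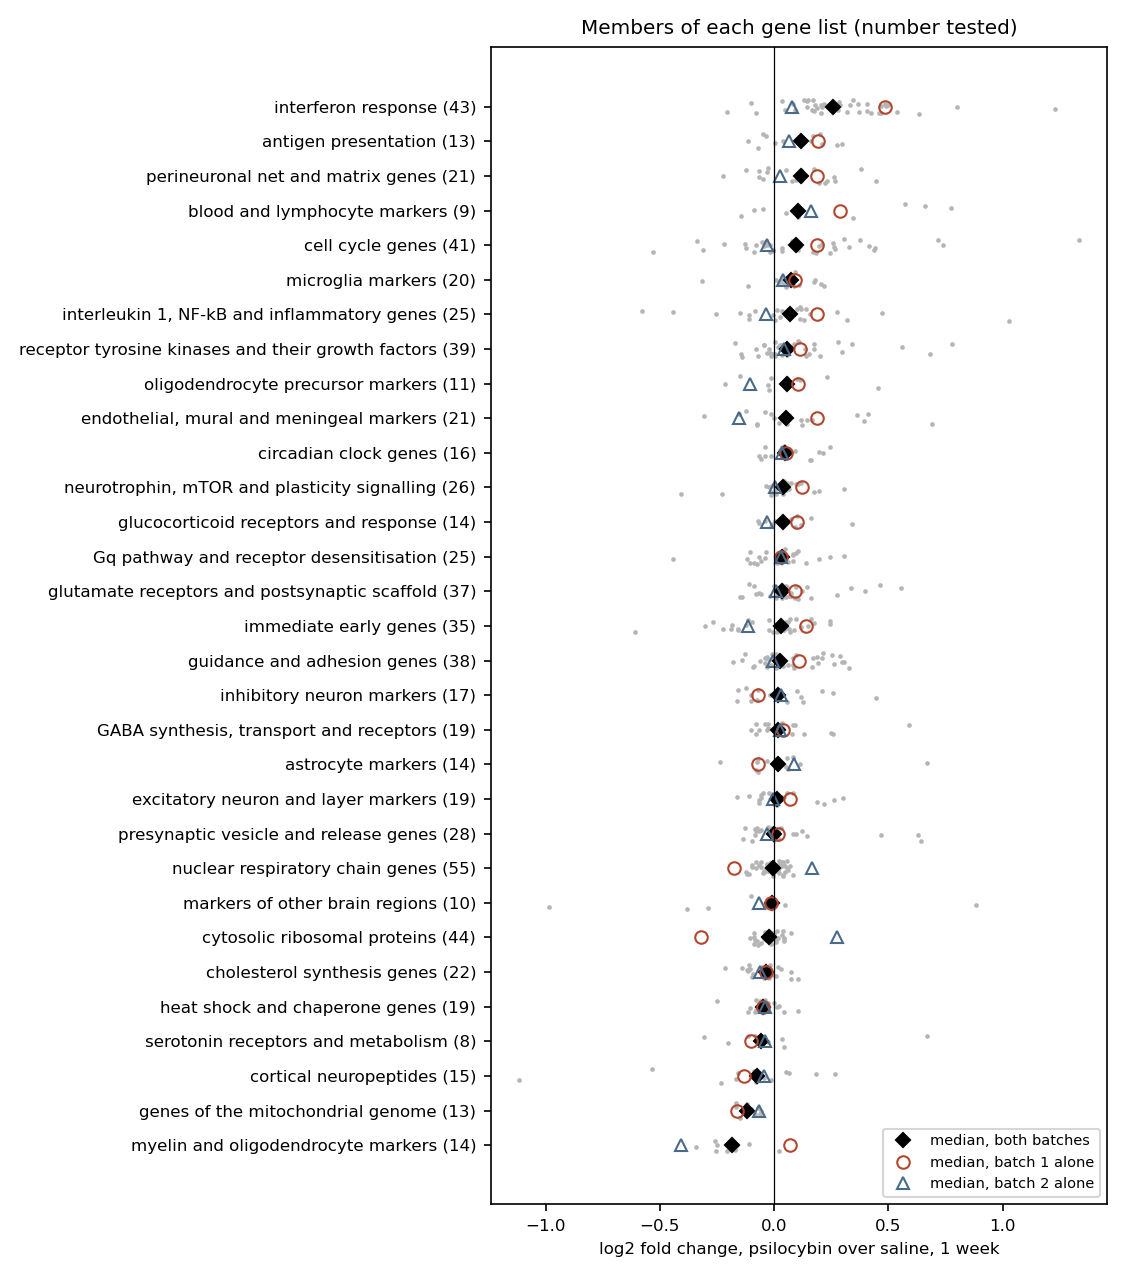
Log2 fold changes of psilocybin over saline at 1 week for the members of the gene lists with at least 5 tested genes (grey points, number tested in brackets), ordered by the median over both batches (black diamonds). Open circles and triangles are the medians within batch 1 alone and batch 2 alone. Interferon response genes lie at the top with a median of 0.26 and myelin genes at the bottom with -0.19, and the batch medians have opposite signs in 14 of the 31 lists shown, myelin, ribosomal and respiratory chain genes among them.

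Stress, clock, cholesterol and guidance genes had list medians from -0.050 to 0.046, beside -0.0032 over all genes, and the matrix list stood higher. Glucocorticoid receptor and response genes had 9 of 14 positive estimates (median log2 fold change 0.038). FKBP5, a glucocorticoid-induced chaperone of that receptor, had 10.1, 12.2 and 14.99 CPM in psilocybin pigs, against 8.86, 10.9 and 16.4 CPM in saline pigs (log2 fold change 0.12, 95% interval -0.16 to 0.40), and NR3C1, the receptor itself, 0.093. HIF3A had a log2 fold change of 0.34. Clock genes had 11 of 16 positive estimates (median 0.046), with CLOCK, PER1 and PER2 at 0.16, 0.16 and 0.20. Perineuronal net and matrix genes had 14 of 21 (median 0.12, the third highest of the 32 lists, with 0.19 in batch 1 alone and 0.025 in batch 2 alone), led by RELN, the matrix glycoprotein TNC (0.27) and VCAN. Heat shock genes had 5 of 19 positive estimates (median -0.050), with HSP90AA1, HSPD1 and HSF1 at -0.080, -0.078 and -0.11. Cholesterol synthesis genes had 6 of 22 (median -0.037), with INSIG1, ACAT2 and SQLE at -0.22, -0.11 and -0.11, and all 22 intervals within 1.5-fold. Guidance and adhesion genes had 23 of 38 (median 0.026), with EPHA7, EPHA3 and PLXNA2 at -0.18, 0.30 and 0.21. All are log2 fold changes, the medians included, and no member of these 6 lists had an unadjusted p under 0.05.

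The effect at 1 week was also set against the effect at 1 day, which was measured in other pigs. Of the 15049 genes, 0 (0%) had an adjusted p under 0.05 for the difference between both effects with edgeR, DESeq2 or limma-voom. At an unadjusted p under 0.05 edgeR listed 304 genes, DESeq2 307 and limma-voom 284. CENPF had a log2 fold change of 0.72 at 1 week and -0.46 at 1 day, a difference of 1.17 ± 0.30 (SE; unadjusted p = 0.00066, adjusted p = 1.00, edgeR). ARHGAP15, a regulator of the GTPase Rac, had 0.75 at 1 week and -0.95 at 1 day (difference 1.70 ± 0.45, unadjusted p = 0.001). CXCL10, an interferon-induced chemokine, had 0.091 at 1 week and -1.41 at 1 day (difference 1.497 ± 0.42, unadjusted p = 0.0017), and it overlaps ART3. Its 1.39, 3.22 and 4.59 CPM in psilocybin pigs at 1 week, against 1.43, 2.83 and 3.996 CPM in saline pigs at 1 week, covered the same range. Interferon response genes as a list had medians of 0.26 at 1 week and -0.28 at 1 day, and microglia markers 0.075 and -0.11. The difference between the times was not tested for a list as a whole.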

How the data were processed

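Expected counts of 25880 Ensembl genes were deposited by the authors as 1 table. The submitters' processing notes name fastp 0.20.0 for the reads, STAR 2.6c for alignment to susScr11, a pig genome build, and featureCounts 1.5.1 for the table. Per the file headers, a read in several genes counted as a fraction in each, without regard to strand. Values were rounded to whole counts, which altered no library's total by more than 0.0013%. Symbols were found for 14857 genes. Genes were filtered with filterByExpr (minimum count 10, minimum total 15) and scaled by TMM, and edgeR 4.0.16 (quasi-likelihood F test, two-sided, Benjamini-Hochberg adjustment) was fitted to all 23 libraries with 4 group terms and a batch term. CPM are TMM-scaled. Within-batch values of a gene are differences in mean log2 CPM (prior count 2). Those of a list are medians of fold changes refitted in that batch. DESeq2 1.42.0 and limma-voom 3.58.1 were alternatives, beside other scalings, filters, covariates and sample sets. The fits were tested on simulated counts.

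The rule for named genes took the 12 smallest p per direction among genes with a symbol, the 3 smallest p of each of 32 lists, 12 genes of interest, up to 6 genes per direction without overlap between groups, and the 3 smallest p of the difference between the times. Members and lists were chosen with earlier results of these data known. One gene that the rule took is not reported here. Of the 126 others, 51 overlap another annotated gene. Overlap was taken from first to last exon, introns included, so it does not show that reads were shared. Near-identical copies in the GBP, IFIT and ribosomal protein families make their counts uncertain. The labels number each pig separately and do not say that any are paired. No reference genome of the build was used, so no sequences are shown.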

Additional observations from a re-analysis of the deposited data

Results flagged for a closer look

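Within a group of 6, single pigs stood apart from the other 5 in 24 of 318 sets of values examined (each gene or list in each group). The rule used has a nominal level of about 1 in 20. The sets share genes and pigs, so they are not independent, and their number cannot be judged against that level. Psilocybin pig 1 stood apart most often: it had 12.9% of counts from mitochondrially encoded genes, list scores of 0.295 for genes of the mitochondrial genome and -0.245 for glutamate receptors and scaffold, 3.61 CPM of PDGFRA, 189 CPM of FOSL1, 50.2 CPM of HSF1 and 2.15 CPM of LY86. Psilocybin pig 6 had scores of 0.246 for inhibitory neuron markers and 0.149 for cholesterol synthesis, with 5.27 CPM of PDYN, 120.2 CPM of SQLE and 418.9 CPM of RPS4X. Psilocybin pig 2 had 19.7 CPM of ALDH1L1, pig 3 had 10.8 CPM of PSMB9 and pig 4 had 9.93 CPM of TTR. Saline pig 1 had a score of -0.146 for the Gq pathway, 223 CPM of FOSL1, 467 CPM of RPS4X and 219 CPM of RPS29. Saline pig 2 had 23.04 CPM of COL3A1, and saline pig 3 had 16.3 CPM of TAP1 and 549 CPM of NTRK2. In saline pig 5 GRIK3 had 13.1 CPM and ARC 549 CPM.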

How the results depend on the processing

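With 6 pigs a group, confidence intervals reached past 1.5-fold for most genes under 10 CPM. The count of genes with an adjusted p under 0.05 was 0 for the effect at 1 week and for its difference from 1 day under every alternative run. The smallest adjusted p reached at 1 week was 0.941, without psilocybin pig 6. For that difference it was 0.605, without the 3 libraries standing apart (psilocybin 1 week pig 6, saline 1 week pig 1 and saline 1 day pig 5). The count of 300 genes with an unadjusted p under 0.05 became 510 with no filter on low counts, 183 with no batch term and 543 in batch 1 alone, and lay from 190 (without psilocybin pig 3) to 583 (without psilocybin pig 6) when 1 pig was left out, with 582 without psilocybin pig 1 and 529 without saline pig 2. The difference in the mitochondrially encoded share lay from -1.19 (without psilocybin pig 1) to -0.352 points when 1 pig was left out. The interferon response median lay from 0.11 (without psilocybin pig 3) to 0.36 when 1 pig was left out. Leaving out 1 pig turned the sign of the median in 15 of the 32 lists. The median log2 fold change of all genes was -0.0032 with TMM and -0.0081 with RLE size factors. Both scalings hold it near 0 by design, so it cannot show whether the results depend on the scaling.

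Some named genes changed sign under an alternative, and the cause was not tested. In batch 1 alone the log2 fold change was 0.12 for ADORA2A, 0.066 for GADD45B, 0.14 for TF, 0.056 for MOG, 0.054 for SOX10, -0.031 for NR3C1, 0.40 for FOXJ1, 0.17 for FOS and 0.16 for DUSP1. In batch 2 alone it was -0.0029 for CCN2, -0.039 for PER2, -0.082 for PER1, 0.086 for LY86, -0.029 for FKBP5, -0.014 for EGR1, 0.054 for TTR, -0.045 for NTRK2, 0.15 for RPS4X, 0.20 for RPS29, -0.23 for CXCL10, -0.061 for BDNF, 0.0064 for HTR2C, -0.13 for RSPH1 and -0.11 for SV2A. With limma-voom it was 0.012 for ARC, 0.034 for FOXJ1, 0.12 for FOS and 0.018 for DUSP1. With no batch term it was 0.0038 for DUSP1 and -0.0054 for SV2A. SV2A was at -0.0033 with RLE size factors, -0.0026 with no filter and -0.0033 with DESeq2, and FOS at 0.00094 with the compared groups alone. Without the 3 libraries standing apart it was -0.0015 for BDNF, 0.032 for FOXJ1 and -0.031 for SV2A. Without psilocybin pigs 3 and 5, an alternative chosen after seeing the data, it was -0.17 for CX3CR1, 0.067 for TTR, -0.18 for CXCL10, 0.034 for FOXJ1, 0.038 for FOS and 0.0036 for DUSP1. When 1 pig was left out, the values lay from -0.48 to 0.21 for ARC, -0.035 to 0.15 for BDNF, -0.035 to 0.25 for CXCL10, -0.096 to 0.095 for DUSP1, -0.21 to 0.26 for FOS, -0.15 to 0.079 for FOXJ1, -0.070 to 0.045 for HTR2C, -0.088 to 0.34 for NR4A1, -0.24 to 0.082 for RPS29, -0.20 to 0.040 for RPS4X, -0.077 to 0.16 for RSPH1, -0.046 to 0.033 for SV2A and -1.89 to 0.082 for TTR. Replicate numbers are not stated to pair pigs, yet pigs of the same number in both groups have neighbouring pig numbers in the titles. This gives 6 pairs of 1 psilocybin and 1 saline pig of the same batch. One such pair is pig 1 of each group, the lowest of its group for SV2C, BSN, GRIN2A and SLC1A2. Deviations of the pairs from their group and batch means had correlations across genes from -0.23 to 0.23, the highest being that of the pigs numbered 1. With 3 pigs of each group in a batch, these values cannot decide whether neighbours share more than adjoining numbers. A fit of the 12 libraries with these pairs as a replicate block was chosen after seeing the data. It called 0 genes and listed 507 at an unadjusted p under 0.05, against 299 for the compared groups alone with a batch term. Its log2 fold changes were 0.099 for FOS and 0.020 for DUSP1, both opposite in sign to the fit of all 23 libraries.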
